A study of Homo sapiens with 6 samples.

Results

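RNA recovered with an antibody against thymidylate synthase (TS) was set against RNA recovered on antibody-free beads in untreated HCT116-UGI cells. The comparison took 2 of the 6 libraries of the series, NT TS-RIP and NT RIPctr, with 1 library a side. Of the 42822 entries of the table, each holding a gene or several overlapping ones, 10292 had a mean of both libraries above 5000, and these entries, called genes below, are the ones described. They held 99.3% of all values in TS-RIP and 99.3% in RIPctr.

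All 6 libraries came from HCT116 cells, a human colon adenocarcinoma line labelled as mismatch repair deficient, which also carried UGI, a protein inhibitor of the uracil-DNA glycosylase UNG, so that the untreated cells had an altered repair background too. For TS-RIP, an anti-TS antibody was added to a lysate that had first been pre-cleared, and Protein A/G beads collected it. For RIPctr, the pre-clearing beads themselves were kept, without any antibody. Cytoplasmic and nuclear extracts were pooled before both steps. The other libraries were the same pair of fractions from cells given 100 nM raltitrexed (RTX), an antifolate inhibitor of TS, or 20 µM 5-fluoro-2′-deoxyuridine (5FdUR), whose phosphorylated form binds TS covalently, for 48 h. The control held no unrelated antibody and no input RNA was part of this comparison, so more RNA with the antibody and less RNA on the bare beads cannot be told apart from a ratio alone. Because lysates were bulk material, fewer cells that make an RNA and less of it per cell cannot be told apart either.

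TS makes thymidylate from deoxyuridylate, the only route of new synthesis of this DNA building block in the cell, and is a target of antifolate and fluoropyrimidine drugs. The enzyme is also known to bind RNA: it can bind its own mRNA and repress its translation, and other mRNAs, among them that of the transcription factor MYC, have been described as partners. In an RNA co-immunoprecipitation, transcripts held by the protein, by the antibody and by the bead surface are recovered together, and the bead control serves to estimate the share that needs no antibody.

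Most of the lowest mRNAs of the comparison carried long stretches of purines (A and G) in their coding sequence. For each of the genes below, the window of 60 coding bases within a single exon that held the most purines is printed to show this, read from GENCODE 44 transcripts on GRCh38 and given on the coding strand; capitals mark runs of 6 or more purines. In EIF5B (chr2:99363662-99363721, plus strand, coding exon 5 of 24) 59 of the 60 bases were purines, in LUC7L3 (chr17:50745781-50745840, plus strand) 59, in NSRP1 (chr17:30179129-30179188, plus strand) 54 and in RBM25 (chr14:73103197-73103256, plus strand) 55. In ECSIT (chr19:11514019-11514078, minus strand), 1 of the highest genes, the richest window held 39. Over the 15 lowest mRNAs the count in this single-exon window ran from 42 (NABP1 and RSRP1) to 59, and over 12 of the 15 highest from 38 to 47 (FAM171B), so the ranges overlapped. By a 60-base window not held to 1 exon, the middle deciles of all mRNAs with a coding sequence met at 73.3% purines. NABP1 was at 73.3% and RSRP1 at 70% by that measure. Neither window measure was corrected for coding length, and a longer sequence offers more windows.
EIF5B: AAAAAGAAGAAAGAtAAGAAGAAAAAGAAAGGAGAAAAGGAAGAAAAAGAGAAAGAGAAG
LUC7L3: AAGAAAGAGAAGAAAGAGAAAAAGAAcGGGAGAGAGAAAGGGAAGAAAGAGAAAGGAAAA
NSRP1: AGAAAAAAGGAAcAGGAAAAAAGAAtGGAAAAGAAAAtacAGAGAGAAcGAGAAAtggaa
RBM25: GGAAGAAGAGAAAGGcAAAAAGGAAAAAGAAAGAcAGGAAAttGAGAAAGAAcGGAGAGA
ECSIT: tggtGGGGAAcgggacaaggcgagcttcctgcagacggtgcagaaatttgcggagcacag

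The untreated pair was sequenced to 11657293 fragments in TS-RIP and 9269725 in RIPctr. Deposited values were fragments times a library factor, with 1 fragment worth 85.0 in TS-RIP and 114 in RIPctr and no correction for gene length, and they are called scaled fragments here. A value of 5000 stood for 58.8 fragments in TS-RIP and 43.9 in RIPctr. Markers of colon epithelium were present on both sides, with a summed level of 6533360 over 18 listed markers in TS-RIP and 6850231 in RIPctr. Of these markers 8 lay above 5000, EPCAM and the keratins KRT8, KRT18 and KRT19 among them, while VIL1, CDX1, LGALS4 and TFF3 were listed at 0 in both libraries. Among 7 markers of fibroblasts, 7 of blood, 4 of endothelium and 3 of liver, only COL1A1 and CD68 lay above 5000, and the CD68 entry also held the translation factor gene EIF4A1.

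Each ratio is the log2(value + 100) of TS-RIP less that of RIPctr. Brackets give its 95% Clopper-Pearson interval, exact for the fragments counted on each side. PCR copies are no independent molecules, so these intervals hold counting error alone, and with 1 library a side no difference between the fractions has a replicate check. The libraries were alike overall: the Pearson correlation of their log2 values was 0.979 across the 10292 genes, which share both libraries and are not independent. The median ratio was 0.04, the quartiles were -0.18 and 0.24, and the whole range ran from -4.43 (MALAT1) to 1.11 (CLDN23). By 1.5-fold, 181 genes (1.76%) were higher in TS-RIP and 477 (4.63%) were lower. The interval lay above 0 for 2818 genes (27.4%) and below 0 for 2358 (22.9%), and it excluded 0 for each of the 181 and the 477. The median width of the interval was 0.42 over all genes, 0.97 for means between 5000 and 10000 and 0.19 for means above 100000. Scaling to equal library totals turned the balance of genes past 1.5-fold, with 57.6% of them higher in place of 27.5%.

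**Figure D1:**
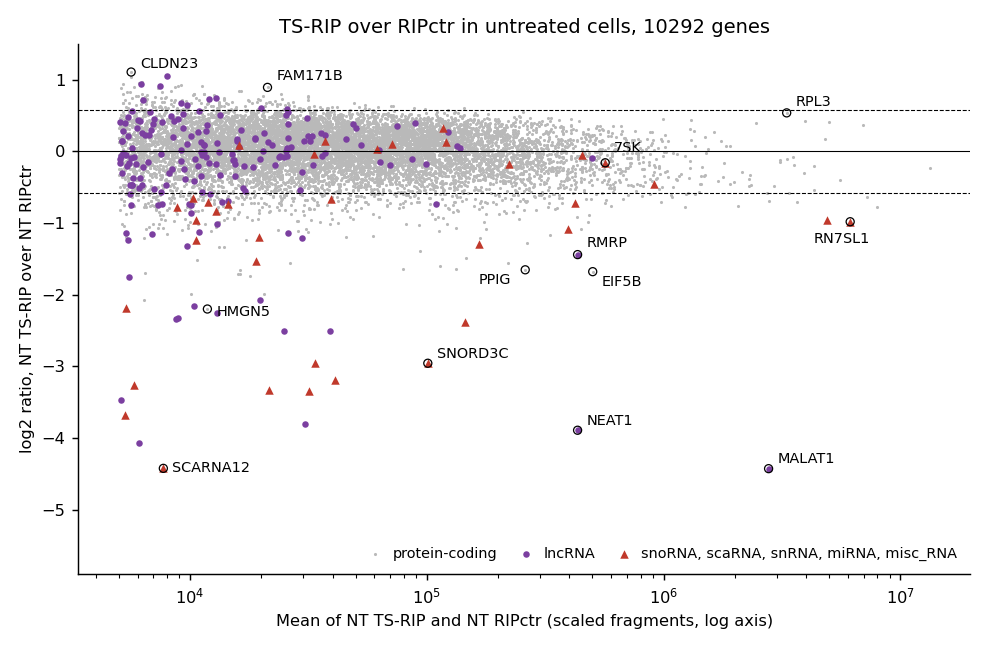
Each point is one of the 10292 genes, with the mean of NT TS-RIP and NT RIPctr in scaled fragments on a log axis and the log2 ratio of TS-RIP over RIPctr on the vertical axis; dashed lines mark 1.5-fold. Protein-coding genes reach from -2.20 (HMGN5) to 1.11 (CLDN23), and the noncoding RNA MALAT1 lies at -4.43.

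Among the lowest mRNAs were several that encode nuclear RNA-handling proteins, along with others such as that of the translation factor EIF5B. EIF5B (ENSG00000158417), which encodes the GTPase that joins the ribosomal subunits at the start of translation, had 238772 scaled fragments in NT TS-RIP against 764353 in NT RIPctr, from 2809 and 6706 fragments, a ratio of -1.68 [-1.74 to -1.61]. PPIG, a prolyl isomerase of nuclear speckles, had 125549 in TS-RIP and 394828 in RIPctr, a ratio of -1.65 [-1.74 to -1.56]. NSRP1, a splicing regulator of the same speckles, had 38336 in TS-RIP and 120021 in RIPctr, a ratio of -1.64 [-1.81 to -1.48]. All 3 were about as low as each other, and their intervals overlapped. The splicing factor gene LUC7L3 had 64177 in TS-RIP against 200036 in RIPctr (ratio -1.64), the SR-related factor SREK1 56272 against 170857 (-1.601), and RBM25, a regulator of alternative splicing, 112373 against 329746 (-1.55). HMGN5, a nucleosome-binding protein, had the lowest ratio of any protein-coding gene in this set, -2.20 [-2.68 to -1.74], on 49 fragments in TS-RIP and 171 in RIPctr. Also among the 15 lowest mRNAs by the upper bound of the interval were PNISR (-1.49), RSRP1 (-1.71) and NABP1 (-1.99), a single-stranded DNA-binding protein. The ankyrin repeat genes ANKRD36 (-1.99), ANKRD36B (-2.08) and ANKRD36C (-1.56) and the golgin genes GOLGA8A (-1.71) and GOLGA8B (-1.65) are near-identical copies within each family, so fragments may have been split among them, and these 5 values are uncertain.

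The 15 lowest mRNAs had coding A+G shares from 54.8% (RSRP1) to 80.02% (HMGN5), and 15 of 15 lay above the median of all genes with a coding sequence, 52.7%. The 15 highest had shares from 45.5% (RTN4R) to 55.7% (RPL3), with 4 of 15 above that median. The ANKRD36 and GOLGA8 copies among the lowest are near identical within each family and do not count as independent genes. All these genes were chosen by ratio, so the counts describe them and no test goes with them.

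Set beside the drug-treated cells, the lowest mRNAs fell into different patterns. The EIF5B ratio was -1.68 in NT but -0.20 in RTX, and it was 0.21 in 5FdUR. In TS-RIP, EIF5B had 238772 in NT, 313757 in RTX and 301879 in 5FdUR. Its RIPctr levels were 764353 in NT, 360893 in RTX and 260140 in 5FdUR, so the untreated bead control stood apart more than the untreated immunoprecipitate. A like pattern held in NSRP1 (ratios -1.64 in NT, -0.19 in RTX, 0.25 in 5FdUR) and PPIG (-1.65 in NT, -0.17 in RTX, -0.02 in 5FdUR). NABP1, in contrast, was low in each treatment (-1.99 in NT, -2.73 in RTX, -1.70 in 5FdUR), and GOLGA8A was lower still in the treated cells (-3.62 in RTX and -3.48 in 5FdUR). In all, 5 of the 15 were not past 1.5-fold in either drug. The 3 ratios come from separate pairs of libraries.

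The difference between untreated and treated cells, NT minus the mean of RTX and 5FdUR, was fitted with limma (eBayes with trend), which took both drugs as 2 samples of drug-treated cells and adjusted over 13479 genes by the Benjamini-Hochberg method. The NT side was 1 pair of libraries. The fit had 1 residual degree of freedom and infinite prior degrees of freedom, so each standard error is a spread shared between genes and not that of the gene, and without the shared trend limma called 0 genes (944 higher and 632 lower at an unadjusted p under 0.05). For genes named because their NT ratio was extreme, the difference holds the value they were chosen by, and it is given as a description with no p. By this measure EIF5B (-1.68), NSRP1 (-1.68), HMGN5 (-1.64) and PPIG (-1.56) had the widest differences among the 15 lowest mRNAs apart from the near-identical copies. RBM25 (-1.08), SREK1 (-1.06), LUC7L3 (-0.78) and RSRP1 (-0.62) had smaller ones.

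**Figure D2:**
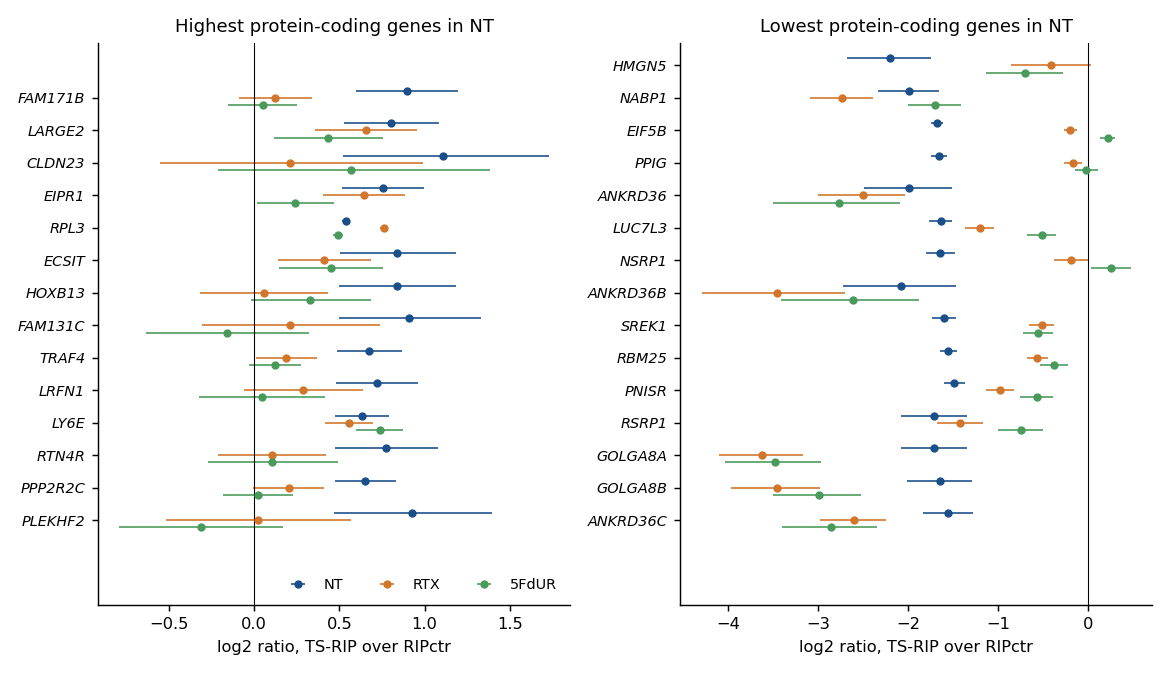
Of the 15 highest protein-coding genes of the untreated comparison, 14 (left), and the 15 lowest (right), with the log2 ratio of TS-RIP over RIPctr on the horizontal axis for NT, RTX and 5FdUR; bars are 95% counting intervals. EIF5B lies at -1.68 in NT and at -0.20 in RTX and 0.21 in 5FdUR, whereas NABP1 lies below -1.6 in all 3 treatments.

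Over all 9134 single-gene mRNAs with a coding sequence, the ratio in untreated cells ran against the purine share. This measure was chosen after the values had been seen, and the figures are a description. From the lowest to the highest decile of coding A+G share, the median ratio in NT passed from 0.19 to -0.18, lower at each step. In RTX the medians of the same deciles were 0.07 for the lowest and 0.05 for the highest, and in 5FdUR 0.04 and 0.09. Of the genes in the highest decile, 151 of 914 were lower by 1.5-fold in NT and 3 were higher. In the lowest decile 11 of 914 were lower and 45 were higher. Over all 10292 genes, 4.63% were lower and 1.76% higher. The medians of deciles 7, 8 and 9 lay just below 0 and turned positive with equal library totals, while the lowest decile kept its positive and the highest its negative sign.

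The levels in each fraction were then set against those of the treated cells. The median of NT minus the mean of RTX and 5FdUR, on the log2 scale, was 0.14 in TS-RIP for the lowest decile of A+G and -0.35 for the highest. In RIPctr it was -0.03 for the lowest decile and -0.04 for the highest. By deciles of the densest purine window of 60 bases, whose median NT ratio was 0.20 in the lowest and -0.19 in the highest, the same differences ran from -0.20 to 0.10 in TS-RIP and from -0.27 to 0.33 in RIPctr, so the fraction that differed was not the same for both measures. The window deciles also differed in length, with a median transcript of 2166 bases in the lowest and 4565 in the highest. EIF5B had differences of -0.37 in TS-RIP and 1.32 in RIPctr. The median difference of the ratio itself, NT minus the mean of the drugs, was -0.26 in the highest A+G decile and 0.15 in the lowest. It was 0.02 for all protein-coding genes above 5000. The A+G measure was chosen after the NT ratios had been seen, and these are part of the difference. No test therefore goes with these values.

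**Figure D3:**
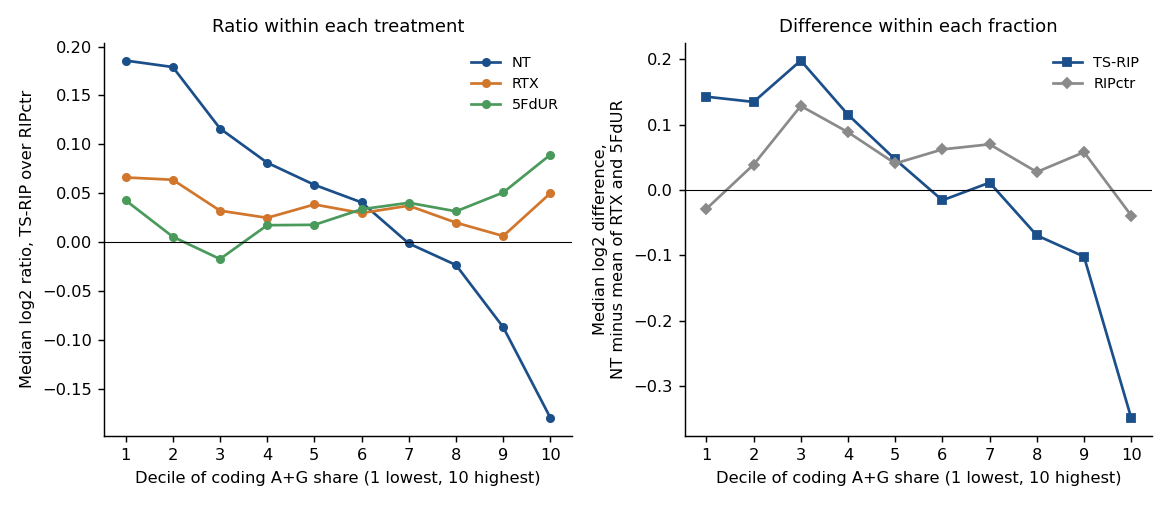
Deciles of coding A+G share, from lowest to highest, against the median log2 ratio of TS-RIP over RIPctr in each treatment (left) and the median log2 difference of NT minus the mean of RTX and 5FdUR in each fraction (right), over 9134 mRNAs. The NT ratio runs from 0.19 to -0.18, and of the 2 fractions the TS-RIP difference reaches -0.35 in the highest decile while the RIPctr difference is -0.04.

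The A share alone gave a wider range than A+G, with a median NT ratio of 0.24 in its lowest decile and -0.31 in its highest. In that highest decile 209 of 914 genes were lower by 1.5-fold and 2 were higher, beside 4.63% and 1.76% of all genes. Spearman's rank correlation with the NT ratio, across 9134 genes that share the same libraries and overlap in base composition, was -0.33 for A+G, -0.48 for A and 0.46 for coding GC content. In RTX these values were -0.03, -0.23 and 0.27, and in 5FdUR 0.06, -0.00 and 0.01. Because GC content moves with both, the deciles were also read within quartile groups of coding GC. In the quartile group with the lowest GC, the median NT ratio was -0.37 for 411 genes of the highest A+G decile, -0.15 for the middle deciles and 0.07 for 50 genes of the lowest decile. In the quartile group with the highest GC it was 0.13 for 77 genes of the highest decile and 0.23 for 501 genes of the lowest. The order by A+G was thus the same at both ends of GC content, and the spread was wider at low GC. Among the 1024 possible coding pentamers, counted per coding base, the most negative rank correlation with the NT ratio belonged to AGAAA (-0.42), followed by GAAAA (-0.41) and AAAGA (-0.40). Of the 15 most negative pentamers 6 were made of purines alone, against 32 of all 1024, and of the 15 most positive, led by CCTGC (0.34) and CCTGG (0.34), 0 were.

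Transcript length had a weaker rank correlation with the ratio in untreated cells than in treated ones. Medians by quartile group of length, from shortest to longest, were 0.11, 0.06, 0.04 and -0.02 in NT, and the rank correlation with length across the 9134 genes was -0.17 in NT, -0.39 in RTX and -0.38 in 5FdUR. The quartile group of the longest transcripts turned positive with equal library totals. For coding length the rank correlation was -0.24 in NT, -0.27 in RTX and -0.31 in 5FdUR. For exon number it was -0.27, -0.09 and -0.07.

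Lists of splicing factors and of large nuclear proteins had the lowest medians among the mRNA lists. All lists were chosen with earlier results of these data known. Over all genes, 4.63% were lower by 1.5-fold and 22.9% had the interval below 0. Of 48 measured mRNAs of splicing factors, 9 were lower by 1.5-fold and 0 higher, and 39 had the interval below 0 against 0 above, with a median ratio of -0.33 in NT beside 0.04 for all genes. LUC7L3 and RBM25 led, followed by PNN (-1.27), a desmosome- and speckle-associated protein, and the SR proteins SRSF11 (-1.09) and SRSF1 (-0.84, an entry that holds overlapping genes too). HNRNPF (0.04) and HNRNPUL1 (0.01), both hnRNP proteins, were at the upper end. The median of this list was -0.00 in RTX and 0.09 in 5FdUR. Its median NT minus drug difference was -0.41, beside 0.02 for all protein-coding genes above 5000. Of 43 mRNAs of large nuclear and centrosomal proteins, 10 were lower by 1.5-fold and 0 higher, with a median of -0.39 in NT (RTX -0.26, 5FdUR -0.14). AKAP9, a scaffold of the centrosome and Golgi, had 36466 in TS-RIP and 82522 in RIPctr (ratio -1.18 [-1.35 to -1.002]), and the kinetochore motor CENPE had 53806 and 108737 (-1.01 [-1.16 to -0.87]). NSD2, a histone methyltransferase, stood at the other end of this list with 668714 in TS-RIP and 584036 in RIPctr (0.20).

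On the higher side, the ratios were smaller and the genes less abundant. The 181 higher genes had medians of 172 fragments in TS-RIP and 79 in RIPctr, against 228 and 329 for the 477 lower genes, and 170 of the 181 were protein-coding. FAM171B, a membrane protein of little described function, had 27626 in TS-RIP and 14818 in RIPctr (ratio 0.89 [0.60 to 1.20]). CLDN23, a claudin of tight junctions, had 7735 in TS-RIP and 3533 in RIPctr (1.11 [0.52 to 1.73]), from 91 and 31 fragments. LARGE2, a glycosyltransferase of dystroglycan, had 30686 in TS-RIP and 17553 in RIPctr (0.80 [0.53 to 1.08]). The intervals of all 3 lay above 0. These genes were chosen by the lower bound of that interval, so this describes them and tests nothing. The signalling adaptor ECSIT (0.84), the homeobox factor HOXB13 (0.84), EIPR1 of the endosomal retrieval machinery (0.76), the Nogo receptor RTN4R (0.77), the synaptic adhesion protein LRFN1 (0.72), TRAF4 of tumour necrosis factor receptor signalling (0.67) and PPP2R2C, a regulatory subunit of protein phosphatase 2A (0.65), were also among the 15 highest. In the 50% subsamples of the same libraries the ratio of HOXB13 was 0.39. Its value at full depth came from 243 fragments in TS-RIP and 101 in RIPctr.

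One abundant mRNA stood in that set. RPL3, a protein of the large ribosomal subunit, had 3918180 in TS-RIP and 2697920 in RIPctr, from 46095 and 23670 fragments, a ratio of 0.54 [0.52 to 0.56]. It did not reach 1.5-fold, and it was high in each treatment (0.76 in RTX and 0.49 in 5FdUR). Of the 170 protein-coding genes higher by 1.5-fold in NT, 18 (10.6%) were also higher in RTX, 4 (2.35%) in 5FdUR and 0 in both, where 2.41%, 1.02% and 0.308% of all 10064 protein-coding genes were. Of the 419 lower ones, 101 (24.1%) were also lower in RTX, 78 (18.6%) in 5FdUR and 65 (15.5%) in both, where 5.46%, 6.14% and 2.73% of all were, and 194 lay within 1.25-fold of equality in both. Both sides thus held more genes past 1.5-fold in RTX than the background, while the 4 in 5FdUR and 0 in both on the higher side are too few to set against it. FAM171B was at 0.12 in RTX and 0.05 in 5FdUR, a difference from the drugs of 0.81. For CLDN23 that difference was 0.72.

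mRNAs whose proteins enter the secretory pathway lay above the rest. Of 61 plasma membrane protein mRNAs, 5 were higher by 1.5-fold and 0 lower, beside 1.76% and 4.63% of all genes. The interval lay above 0 for 36 and below 0 for 1, beside 27.4% and 22.9% of all genes. The list median was 0.21 in NT, 0.04 in RTX and 0.07 in 5FdUR. Besides CLDN23, TMEM158 (1.03), the tetraspanins CD82 (0.63) and TSPAN15 (0.62) and the death receptor TNFRSF21 (0.61) were past 1.5-fold. TMEM158 rested on 89 fragments in TS-RIP and 32 in RIPctr, and in the 50% subsamples it was at 0.42. The lowest entry of the list was ERBB3 at -0.21, but that entry also held PA2G4, the gene of a proliferation-associated cytosolic protein. Secreted and matrix proteins (39 mRNAs) had a median of 0.24 in NT (RTX 0.20, 5FdUR 0.17), with PLAU, the urokinase protease, at 0.54 and the laminin chain LAMB2 at -0.40. Soluble proteins of the endoplasmic reticulum (26) had a median of 0.23, with the disulfide isomerases P4HB and PDIA4 at 0.45 each, and membrane proteins of the endoplasmic reticulum and Golgi (57) had 0.19, with the cargo receptor ERGIC3 at 0.62 and the translocon-associated SEC62 at -0.30. In RTX and 5FdUR the soluble proteins were at 0.26 and 0.31 and the membrane proteins at 0.19 and 0.18, close to their NT medians.

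By gene name, 104 TMEM genes had a median of 0.21 in NT (RTX 0.06, 5FdUR 0.06), with 7 higher and 0 lower, and 136 SLC transporters outside the mitochondrial family had 0.17, -0.00 and 0.03, with 3 higher and 0 lower. The amino acid transporter SLC38A1 had 286713 in NT TS-RIP and 205621 in NT RIPctr (0.48 [0.40 to 0.56]), with ratios of 0.01 in RTX and 0.10 in 5FdUR. The 3 of 136 SLC genes past 1.5-fold are a share near the 1.76% of all genes. Limma called 11 of the SLC genes (8.09%) higher in NT than under the drugs and 1 lower, and 7 of the TMEM genes (6.73%) higher and 0 lower, beside 4.43% higher and 5.79% lower over all genes tested.

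The same direction was found when membrane and secreted proteins were recognised from sequence rather than by name. A hydrophobic start was scored where any 10 residues within the first 35 of the protein had a mean Kyte-Doolittle hydropathy of 2 or more, and a membrane segment where 19 later residues had a mean of 1.6 or more. Median NT ratios were 0.20 for 643 mRNAs with a hydrophobic start and no segment, 0.21 for 422 with a start and 1 segment, and 0.21 for 324 with a start and more segments. Without a hydrophobic start they were 0.00 for 6095 mRNAs with no segment, 0.02 for 973 with 1, and 0.13 for 653 with more. In RTX and 5FdUR, classes with a hydrophobic start had medians from 0.02 to 0.06. Median A+G was 51.9%, 50.9% and 47.9% in the classes with a hydrophobic start and 53.6%, 52.3% and 49.4% in those without, so the classes were read within quartile groups of A+G too. In the quartile group with the lowest A+G the median was 0.25 with a hydrophobic start and 0.14 without, and in the quartile group with the highest it was 0.00 with and -0.12 without. Within quartile groups of coding GC the corresponding pairs were 0.08 and -0.21 at the lowest GC and 0.27 and 0.19 at the highest. The median NT minus drug difference of the ratio was 0.17 for 1389 mRNAs with a hydrophobic start and -0.01 for 7721 without one. It was 0.02 for all protein-coding genes above 5000.

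**Figure D4:**
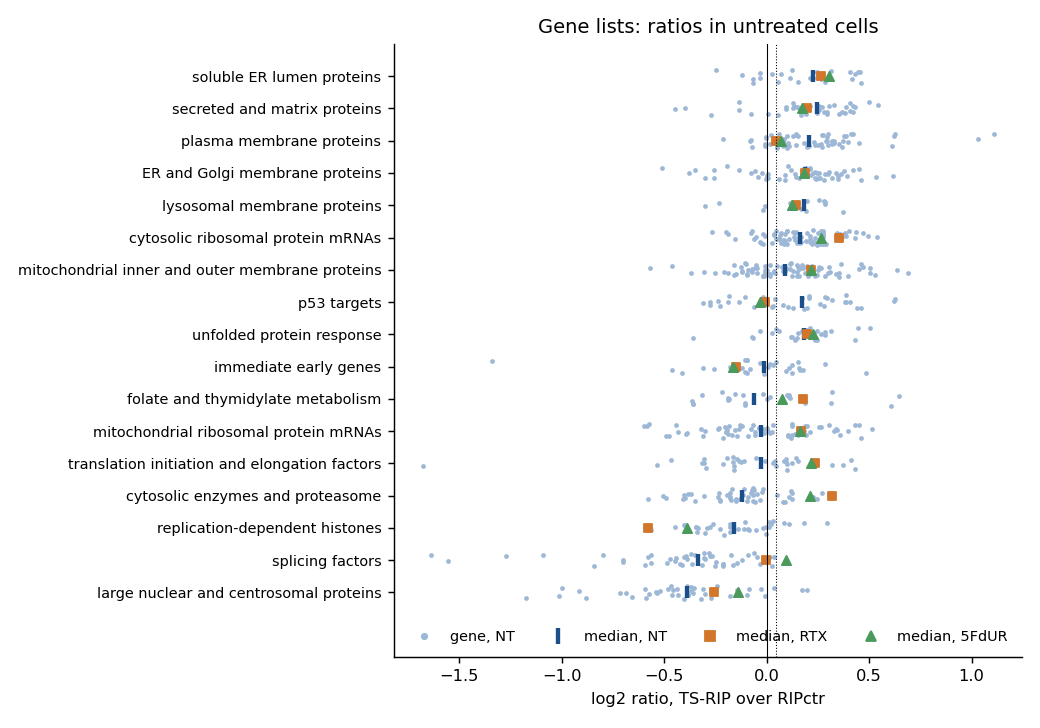
Log2 ratios of TS-RIP over RIPctr for the members of 17 gene lists in NT (points, spread vertically for legibility) with the median of each list in NT, RTX and 5FdUR; the dotted line is the median of all genes in NT. The NT median is -0.33 for splicing factors (RTX -0.00, 5FdUR 0.09) and 0.21 for plasma membrane proteins (RTX 0.04, 5FdUR 0.07).

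Lists of cytosolic enzymes and of translation factors had medians below 0 in NT and above it in the treated cells. Of 50 mRNAs of cytosolic enzymes and the proteasome, 0 were past 1.5-fold either way. The interval lay below 0 for 27 and above 0 for 5, beside 22.9% and 27.4% of all genes. The list median was -0.12 in NT, 0.32 in RTX and 0.21 in 5FdUR. The proteasome lid subunit PSMD7 had 113903 in NT TS-RIP and 170173 in NT RIPctr (-0.58 [-0.69 to -0.47]), whereas its ratio was 0.37 in RTX and 0.25 in 5FdUR, a difference of -0.89. The median NT minus drug difference of the 50 was -0.35, beside 0.02 for all protein-coding genes above 5000. For 36 translation initiation and elongation factors the median was -0.03 in NT, a sign that turned with equal library totals, 0.23 in RTX and 0.22 in 5FdUR. EEF1A1 (0.41) and the poly(A)-binding protein PABPC1 (0.43) were at the upper end, and EIF3A, a scaffold of the initiation factor eIF3, had 3524110 in NT TS-RIP and 5098460 in NT RIPctr (-0.53 [-0.55 to -0.51]). Cytosolic ribosomal protein mRNAs (77) had a median of 0.16 in NT (RTX 0.35, 5FdUR 0.26), with 51 intervals above 0 and 1 below in NT. Intervals were narrower at higher levels, so counts of intervals also depend on the level of the mRNAs.

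The mRNAs already described as partners of TS lay near equality. TYMS, the mRNA of TS itself, had 133199 in NT TS-RIP and 124239 in NT RIPctr, a ratio of 0.10 [-0.01 to 0.21] whose interval held 0. With equal library totals the median ratio of all genes was 0.14 in place of 0.04. Whether the TYMS interval holds 0 thus depends on the scaling. MYC had 617627 in TS-RIP and 578679 in RIPctr (0.09 [0.04 to 0.15]), and ISG15, an interferon-induced ubiquitin-like protein, had 33151 and 36018 (-0.12 [-0.34 to 0.10]). Of the list of 8 RNAs described as TS-bound, 0 were higher by 1.5-fold and 2 were lower, both of them signal recognition particle RNAs, with a median of -0.11. Of all genes 1.76% were higher by 1.5-fold, and among 24 measured genes of folate and thymidylate metabolism 2 were. These were DCTD, the deaminase that makes deoxyuridylate (30601 in TS-RIP and 19491 in RIPctr, 0.65 [0.38 to 0.92]), and DTYMK, the thymidylate kinase that follows TS (34766 and 22796, 0.61 [0.36 to 0.86]). RRM1, the large subunit of ribonucleotide reductase, and MTHFD1, a folate-interconverting enzyme, lay at the lower end of that list (-0.36 each), while in RTX they were at 0.32 and 0.27. The list median of -0.06 in NT turned positive with equal library totals. For 35 targets of the p53 pathway the median was 0.17 in NT, -0.01 in RTX and -0.03 in 5FdUR, with 2 higher (CD82 and the decoy receptor TNFRSF10C) and 0 lower, and GDF15, a secreted stress cytokine, was at 0.39 [0.29 to 0.48].

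Noncoding RNAs held the lowest ratios of the comparison, while the highest belonged to the protein-coding CLDN23. MALAT1 (ENSG00000251562, chr11:65497640-65508073), the lncRNA of nuclear speckles, had 246252 in NT TS-RIP and 5302940 in NT RIPctr (-4.43 [-4.48 to -4.37]). NEAT1, the scaffold of paraspeckles, had 54572 in TS-RIP and 811427 in RIPctr (-3.89 [-4.01 to -3.78]). KCNQ1OT1, an imprinted antisense RNA, had 7395 in TS-RIP and 42515 in RIPctr (-2.51). All 4 measured nuclear-retained lncRNAs, the fourth being FTX (-2.26) of the X-inactivation centre, were lower by 1.5-fold. The entries of MALAT1 and NEAT1 each include an overlapping gene. Of 182 lncRNAs, 33 were lower and 10 higher, beside 4.63% and 1.76% of all genes, with a median of -0.06 in NT (RTX -0.31, 5FdUR -0.26). The NT median turned positive with equal library totals. The highest lncRNAs were of low level, such as AC114271.1 with 10795 in TS-RIP and 5129 in RIPctr (1.06 [0.57 to 1.57]) and LINC00294 with 16150 and 9574 (0.75 [0.37 to 1.13]), whose ratios were -0.29 and -0.63 in RTX.

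Of all genes called by limma, edgeR and DESeq2, the difference between untreated and treated cells was widest for 7SK (ENSG00000202198, chr6:52995620-52995950). This RNA holds the elongation factor P-TEFb inactive. Its entry carries the name AL162581.1 in the deposited values, with the gene ID of 7SK. It had 535345 in NT TS-RIP and 597372 in NT RIPctr, from 6298 and 5241 fragments (-0.16 [-0.21 to -0.10]). In RTX it had 84606 in TS-RIP and 2863250 in RIPctr (-5.08), and in 5FdUR 119795 in TS-RIP and 3143350 in RIPctr (-4.71). Both fractions differed, with more 7SK in the untreated TS-RIP and less in the untreated RIPctr than in the treated ones. The difference was 4.74 (SE 0.13, a spread shared between genes). RMRP, the RNA of RNase MRP, was also less far below its bead level in untreated cells, with 233162 in NT TS-RIP and 632820 in NT RIPctr (-1.44) beside -4.22 in RTX and -3.89 in 5FdUR. For RMRP the bead levels were similar in the 3 treatments (632820, 659066 and 547125 in NT, RTX and 5FdUR) and the TS-RIP levels were not (233162, 35365 and 36776). The telomerase RNA TERC was at -2.08 in NT, -4.66 in RTX and -4.15 in 5FdUR. Its difference was 2.33. NEAT1 (-6.28 in RTX and -5.99 in 5FdUR, difference 2.25) and MALAT1 (-6.28 and -5.57, difference 1.499) followed, although DESeq2 did not call MALAT1.

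**Figure D5:**
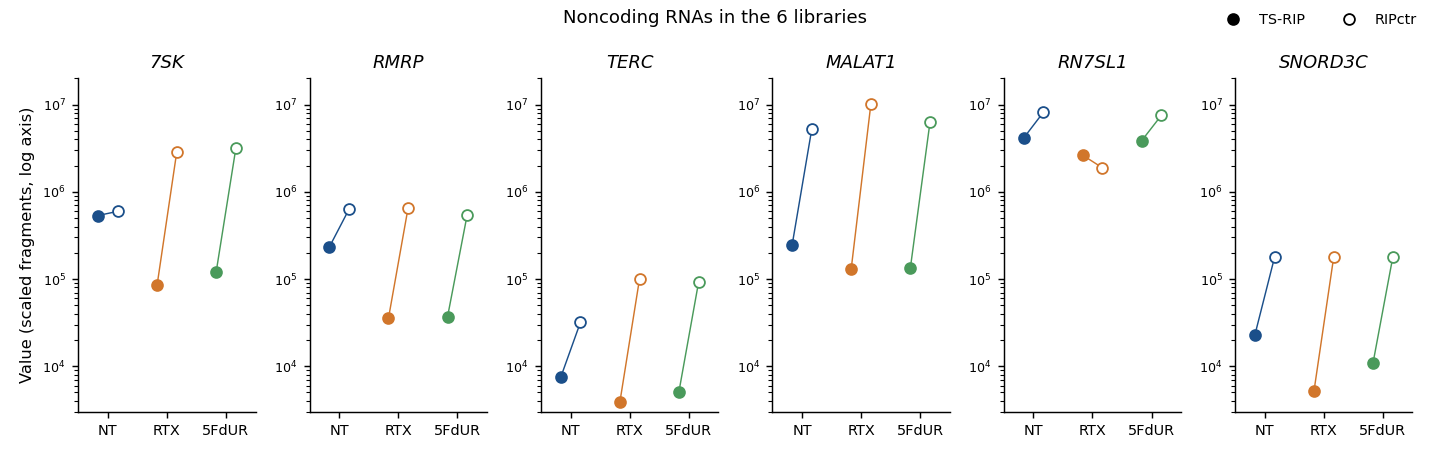
Values of 6 noncoding RNAs in scaled fragments (log axis) in TS-RIP (filled) and RIPctr (open) of NT, RTX and 5FdUR cells. 7SK lies at 535345 (TS-RIP) and 597372 (RIPctr) in the untreated pair and at 84606 and 2863250 in the RTX pair, and RN7SL1 in RTX lies higher in TS-RIP (2636290) than in RIPctr (1892450).

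The signal recognition particle RNA, which targets ribosomes to the endoplasmic reticulum, took another course. RN7SL1 had 4124830 in NT TS-RIP and 8142990 in NT RIPctr (-0.98 [-0.998 to -0.965]), 2636290 and 1892450 in RTX (0.48) and 3862540 and 7548280 in 5FdUR (-0.97). RN7SL2 was at -0.95 in NT, 0.73 in RTX and -0.89 in 5FdUR, so NT and 5FdUR were alike and RTX differed. The pseudogene copy RN7SL5P was at -2.38 in NT, 2.03 in RTX and -0.17 in 5FdUR. As these copies are near identical, fragments may be shared among them. For RN7SL1 the difference of NT from the drugs was -0.74, but the treated pairs had opposite signs and DESeq2 did not call it.

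Small nucleolar and Cajal body RNAs were lower in TS-RIP where they were counted on their own. Of 16 entries of snoRNAs and scaRNAs above 5000, 7 held a single gene. Beside 4.63% of all genes, 7 of 7 were lower by 1.5-fold, with a median of -3.26. Among these, the U3 RNA copy SNORD3C, which guides the first cuts of the ribosomal RNA precursor, had 22951 in TS-RIP and 178835 in RIPctr (-2.96 [-3.15 to -2.77]), beside -5.07 in RTX and -4.01 in 5FdUR. SCARNA12 of Cajal bodies had 7 fragments in TS-RIP and 130 in RIPctr (-4.42 [-5.49 to -3.45]). The 9 merged entries, which also count the spliced host transcript, had a median of -0.64, and the entry of SNORD49B with its host SNHG29 was at 0.32. U1 copies were lower as well, with RNU1-2 at -0.96, RNU1-4 at -0.83 and RNU1-3 at -0.73.

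Over all genes tested, 127 of those called lower in NT by limma were also called by edgeR and DESeq2, and 14 of those called higher. Those called lower by each tool had a median coding A+G share of 57.2% against 52.7% for all genes. This share was a measure chosen after the NT ratios had been seen. Most of the genes called lower by each tool were protein-coding. Among them were, besides EIF5B, NSRP1, PPIG, RBM25 and SREK1, the chaperone mRNAs HSP90AB1 and HSP90AA1, the nucleolar proteins NOP58 and NCL and the replication factors MCM2 and MCM3. The 14 that were higher included 7SK, RMRP, TERC, NEAT1 and KCNQ1OT1. With equal library totals the median difference over all genes was 0.24 in place of 0.05, and the counts followed, with 1850 higher and 345 lower. Without the trend shared between genes limma called 0 in either direction, with 944 higher and 632 lower at an unadjusted p under 0.05.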

How the data were processed

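RNA was measured by sequencing of TS-RIP and RIPctr fractions in 6 libraries. Libraries were rRNA-depleted, paired-end and strand-aware. The authors used fastp for trimming, BWA against residual rRNA, HISAT2 for the alignment to GRCh38, and the Cufflinks suite on GENCODE 34 for quantification; versions are not given in the sources used here. The deposited values, called FPKM by the authors, were signal: each low value was a whole multiple of 1 step per library (100% of values within 0.05 fragments), without length correction and with geometric library scaling. Dividing by that step gave fragments. Subsamples of 50% that the authors drew from the same libraries served only as an alternative, and 10 further per-sample columns were not used.

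Ratios were log2(value + 100) in TS-RIP minus RIPctr for entries with a mean above 5000, counted past 1.5-fold, with 95% Clopper-Pearson intervals from SciPy 1.17.1. limma 3.58.1 (R 4.3.3, lmFit and eBayes with trend, treatment as a block, mean above 500) compared the NT ratio with the mean of the drugs at an adjusted p of 0.05, two-sided; edgeR 4.0.16 and DESeq2 1.42.0 on the recovered fragments were alternatives. Other alternatives were the pseudocount (10 and 1000), equal library totals, the level minimum and the fold. Genes, types, lengths and coding sequences came from GENCODE 44, matched by transcript: 9314 entries held 1 gene, 961 several and 17 none. Hydropathy was computed on translated coding sequences. Scripts were tested on simulated data.

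Named genes were the 15 protein-coding genes and 6 lncRNAs at each end by the bound of the interval nearer 0, small RNAs, RNAs known as TS-bound, and 2 members at each end of every list; other genes named were chosen after their values were seen. The gene lists and members were chosen with earlier results of these data known. A gene among the highest and a sequence are not reported here.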

Additional observations from a re-analysis of the deposited data

Results flagged for a closer look

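A difference between the untreated and the drug-treated pairs passed limma, edgeR and DESeq2 for 18 of the 156 genes named by the rule. It is given as the log2 ratio in NT minus the mean of RTX and 5FdUR. Lower in NT were EIF5B (-1.68), NSRP1 (-1.68), PPIG (-1.56), RBM25 (-1.08), SREK1 (-1.06), PSMD7 (-0.89), RRM1 (-0.74), MTHFD1 (-0.68), EIF3A (-0.67), the entry of RNU6-1240P merged with the nuclear basket gene TPR (-0.64), and that of ERBB3 merged with PA2G4 (-0.60). Higher in NT were GOLGA8A (1.84), KCNQ1OT1 (1.86), NEAT1 (2.25), TERC (2.33), RMRP (2.61), the lncRNA AL356488.2 (2.71) and 7SK (4.74). Over all 13479 genes tested, 14 genes higher and 127 lower in NT passed all 3 tools. By limma alone, 597 genes were higher and 780 lower in NT. For 7SK the levels moved in both fractions, by 2.41 in TS-RIP and -2.33 in RIPctr (NT minus the mean of the drugs), for RMRP by 2.69 in TS-RIP and 0.08 in RIPctr, and for EIF5B by -0.37 in TS-RIP and 1.32 in RIPctr. All 3 tools read the same 6 libraries with 1 pair for NT, and limma without the trend shared between genes called 0 genes (944 higher and 632 lower at an unadjusted p under 0.05). Many of these genes were named for an extreme NT ratio, so that their passing is partly set by the choice. With 1 library for each treatment and fraction, a treatment and a library cannot be told apart.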

How the results depend on the processing

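Of the counts past 1.5-fold, 181 genes were higher in TS-RIP. This count was 431 with equal library totals, 49 for means above 20000, 581 for means above 500, 340 in the 50% subsamples and 3 at a fold of 2. The 477 lower genes became 317, 273 and 1304 under the first 3 of these settings and 94 at a fold of 2. Of the genes past 1.5-fold, 27.5% were higher, against 15.2% for means above 20000, 37.8% in the subsamples and 17.8% with the median ratio set to 0. For the ratio in NT against the drugs, 597 higher and 780 lower became 0 and 0 by limma without trend (944 and 632 at an unadjusted p under 0.05), 1850 and 345 with equal totals, and 14 and 127 with DESeq2. The other settings of these counts, among them pseudocounts of 10 and 1000 and edgeR (835 and 675), moved them by less than 1.5 times. Equal totals turned 4 called ratios of 156 named genes: KIF5B to 0.000734, CD68 to 0.0331, NORAD to 0.00130 and HSPA5 to 0.0269. They turned the sign of 11 of 55 medians of lists and classes, each near 0. Low genes limit the comparison: at means between 5000 and 10000 the interval was 0.97 wide.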
